A study of Homo sapiens with 5 samples.

Results

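In all, 10 genes of glycolysis and of the steps that follow it were examined in ChIP-seq peak lists of ASXL1, FOXK1 and O-GlcNAc: HK1, HK2, PFKP, ALDOA, GAPDH, PGK1, ENO1, PKM, LDHA and PDK1. Every peak within 5 kb of the hg19 start given for each gene was taken, measured to the nearest edge of the peak. This gave 48 peaks, of 194759 in the 3 lists: 28 of 94237 ASXL1 peaks, 19 of 78825 O-GlcNAc peaks and 1 of 21697 FOXK1 peaks. The series maps proteins and a sugar modification on the chromatin of a line derived from human embryonic kidney, Flp-In HEK293 T-REx, which carries a site for inserting transgenes and a tetracycline repressor. It holds 1 library per antibody and 2 inputs, so no value below has a replicate error. The labels give no treatment or added transgene for any library. ASXL1 and O-GlcNAc were precipitated from chromatin preparation 63 and FOXK1 from preparation 62, each set against the input of its own preparation. A difference between FOXK1 and the other lists therefore cannot be told apart from one between preparations. The lists hold no tag counts, so the depth behind a peak is unknown.

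Glycolysis splits glucose into pyruvate. Hexokinases such as HK1 and HK2 phosphorylate glucose, the phosphofructokinase PFKP commits the sugar to the pathway, and the aldolase ALDOA splits it. GAPDH, PGK1, ENO1 and PKM carry the resulting fragments to pyruvate, LDHA reduces pyruvate to lactate, and the kinase PDK1 restrains its conversion to acetyl-CoA by inhibiting pyruvate dehydrogenase. A side branch before the PFKP step leads to the donor sugar of O-GlcNAc, which is attached to serine and threonine of nuclear and cytosolic proteins. FOXK1, a forkhead transcription factor, has been described as an inducer of aerobic glycolysis, and ASXL1 binds BAP1, an enzyme that takes ubiquitin off histone H2A.

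RefSeq promoter sequences were found for all 10 genes, with 24 start sites in GRCh38.p14, a different build from that of the peaks. The 250 bases before the start are printed 5′ to 3′ for the gene with the FOXK1 peak (PKM), for 4 others with ASXL1 and O-GlcNAc peaks over the start (ENO1, GAPDH, LDHA, PGK1), and for HK1, which had no peak. Capitals mark, on either strand, any of the 4 motifs searched: TGTTTAC (forkhead), ACGTG (the core of the hypoxia response element), GGGCGG (GC box) and CCGGAA (ETS). For HK1 and LDHA the most upstream RefSeq start is shown.
PKM (chr15:72231191-72231440, minus strand): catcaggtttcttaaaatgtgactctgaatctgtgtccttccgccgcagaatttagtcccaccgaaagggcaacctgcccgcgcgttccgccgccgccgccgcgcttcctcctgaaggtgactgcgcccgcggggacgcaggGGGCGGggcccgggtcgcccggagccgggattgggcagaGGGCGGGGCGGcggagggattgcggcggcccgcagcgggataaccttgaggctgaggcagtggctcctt
ENO1 (chr1:8878687-8878936, minus strand): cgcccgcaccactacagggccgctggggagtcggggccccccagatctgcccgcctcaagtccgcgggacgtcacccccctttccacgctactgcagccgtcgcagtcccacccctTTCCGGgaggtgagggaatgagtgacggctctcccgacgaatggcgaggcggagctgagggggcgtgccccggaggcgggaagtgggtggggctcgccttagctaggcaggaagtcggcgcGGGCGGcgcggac
GAPDH (chr12:6535014-6535263, plus strand): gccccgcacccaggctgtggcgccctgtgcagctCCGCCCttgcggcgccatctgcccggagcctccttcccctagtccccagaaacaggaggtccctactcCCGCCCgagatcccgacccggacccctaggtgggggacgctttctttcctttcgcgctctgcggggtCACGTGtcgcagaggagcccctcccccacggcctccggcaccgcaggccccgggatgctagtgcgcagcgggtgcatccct
LDHA (chr11:18394313-18394562, plus strand): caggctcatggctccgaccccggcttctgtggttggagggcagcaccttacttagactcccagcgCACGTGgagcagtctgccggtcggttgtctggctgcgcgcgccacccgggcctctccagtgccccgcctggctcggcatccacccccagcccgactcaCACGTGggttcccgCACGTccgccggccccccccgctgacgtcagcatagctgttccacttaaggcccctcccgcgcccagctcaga
PGK1 (chrX:78103998-78104247, plus strand): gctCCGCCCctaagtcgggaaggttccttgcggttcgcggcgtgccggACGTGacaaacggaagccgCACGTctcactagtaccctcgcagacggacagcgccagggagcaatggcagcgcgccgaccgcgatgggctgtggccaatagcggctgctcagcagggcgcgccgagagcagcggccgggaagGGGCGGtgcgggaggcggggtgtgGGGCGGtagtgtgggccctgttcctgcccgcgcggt
HK1 (chr10:69269750-69269999, plus strand): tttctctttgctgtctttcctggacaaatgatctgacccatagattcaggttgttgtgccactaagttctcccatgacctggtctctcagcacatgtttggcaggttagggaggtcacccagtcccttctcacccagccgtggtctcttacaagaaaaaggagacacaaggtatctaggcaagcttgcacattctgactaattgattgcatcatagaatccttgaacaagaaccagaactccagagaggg

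The forkhead motif TGTTTAC stood in 0 of the 24 promoters of these genes, against 2.98% of all 35116 RefSeq promoter stretches of the same length. The PKM promoter held GC boxes at 2 places, where matches that overlap count as 1 place, and none of the other motifs. Among the other printed promoters, LDHA at its most upstream start held ACGTG at 3 places, PGK1 held it at 2 and GAPDH at 1. The other LDHA start, not printed, held no ACGTG. At GAPDH, and at 2 of the 3 LDHA places, the motif was part of CACGTG, which reads the same on both strands. Across the 24 promoters, 10 held ACGTG (41.7%), against 18.5% of all promoters. These 10 belonged to 7 genes: ALDOA, GAPDH, HK2, LDHA, PDK1, PFKP and PGK1. GC boxes were in 13 of the 24 (54.2%, against 42.6%) and the ETS motif was in 6, against 14.5% of all promoters. The promoters are not independent, since some genes have several starts. HK1 has 7, a pair of them 5 bp apart, and none of the 7 held ACGTG. ALDOA held it at all 3 of its starts and HK2 at both of its own. Their GC share ran from 35.6% to 81.6%, and its part in these counts was not tested. A match of letters is a description and not a binding site, and a motif missing here says only that these letters are not in this window.

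ASXL1 peaks lay within 5 kb of 9 of the 10 starts, all but that of HK1. Of 303423 adjoining windows of the same width on chromosomes 1 to 22 and X, 20.0% held an ASXL1 peak. O-GlcNAc peaks lay near 8 of the 10 starts, all but HK1 and PFKP, against 20.9% of windows. FOXK1 had a peak at PKM alone, 1 of 10, against 6.37% of windows. That peak also made PKM the single gene with all 3 lists, against 2.94% of windows. Windows along the genome are mostly not gene starts, and starts of all other genes were not analysed here, so how these counts compare with those of other promoters was not tested. In the windows within 500 kb of the 10 starts, without the start windows themselves, the shares were higher, with ASXL1 at 36.7%, O-GlcNAc at 33.7% and FOXK1 at 10.6%. The ASXL1 and O-GlcNAc counts stood well above both backgrounds, and the FOXK1 count stood near them.

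**Figure D1:**
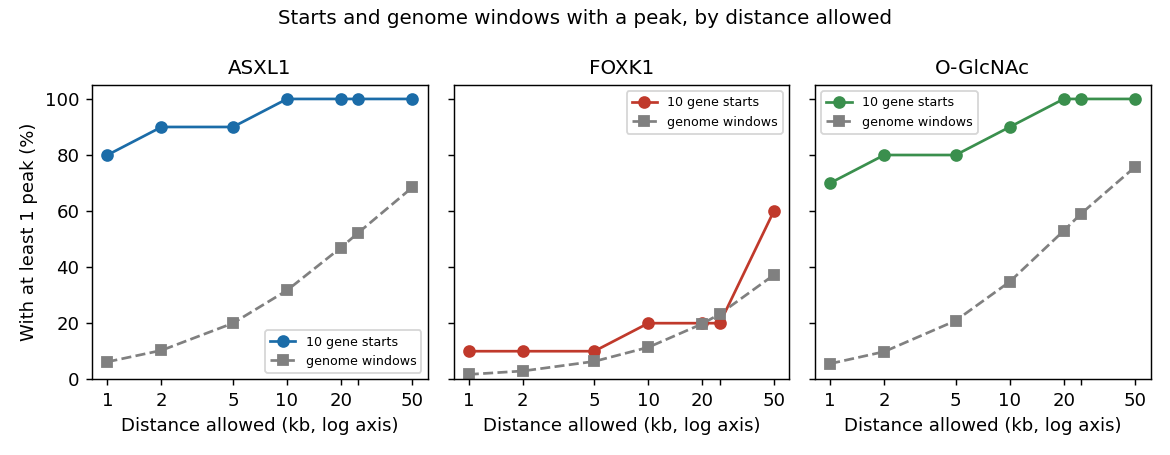
Share of the 10 gene starts (coloured line) and of adjoining genome windows (grey dashed line) with at least 1 peak, in percent, against the distance allowed to either side in kb on a log axis, 1 panel per list. At 5 kb the starts reach 90% for ASXL1 and 80% for O-GlcNAc against 20.0% and 20.9% of windows, and FOXK1 stands at 10% against 6.37%.

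For most of these genes the highest peak near the start ranked high in its own list. Scores are those the authors' peak caller gave and are not on a common scale between lists, so each is given with the share of its own list that scored lower. The highest ASXL1 peak per gene ranged from 119.04 at ALDOA to 3100 at GAPDH, with a median of 1394.82 over the 9 genes, where the whole list had a median of 74.2. The score of 3100 is shared by 304 ASXL1 peaks, with 34 above it, and may be a value the caller assigns rather than measures, so no order is read between GAPDH and the next genes. For O-GlcNAc the range was 81.57 at PGK1 to 1058.96 at ENO1 with a median of 493 over 8 genes, where the list had 67.1. Taking the highest peak of each gene raises these medians. Over all 28 ASXL1 peaks the median was 226, and over all 19 O-GlcNAc peaks 134.9. The FOXK1 peak at PKM scored 74.91, close to the FOXK1 median of 76.3. Peaks at these genes were also wide, with a median of 568 bp for ASXL1 and 785 bp for O-GlcNAc against 269 bp and 231 bp over the lists. The lists hold peaks from the whole genome. Whether peaks at other gene starts score as high or are as wide was not tested.

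**Figure D2:**
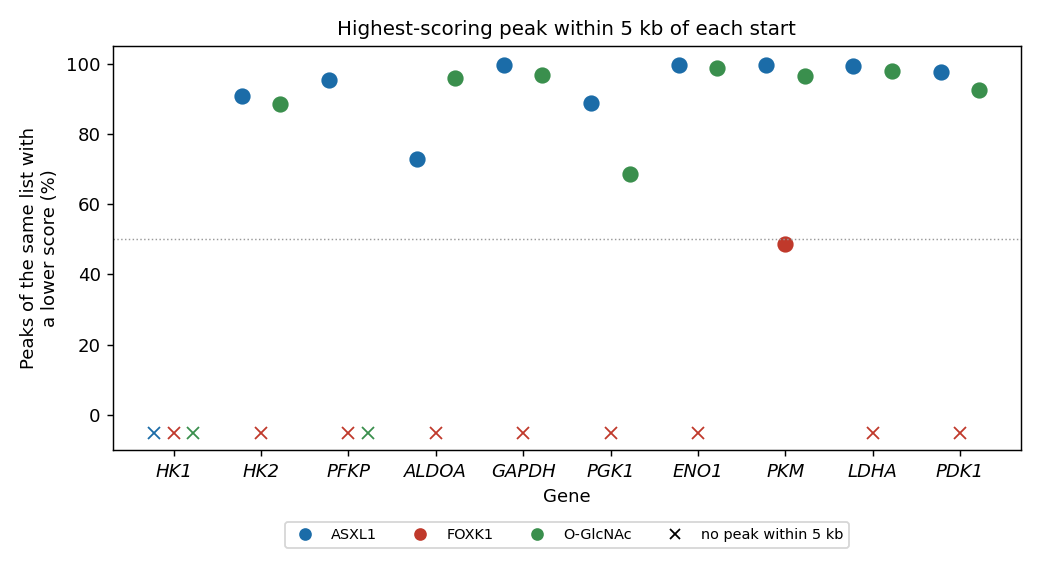
Highest-scoring peak within 5 kb of each start, as the percent of its own list with a lower score (y axis), by gene (x axis) and list (colour), with crosses where a list had no peak and a dotted line at 50%. ASXL1 points of 9 genes lie between 72.9% and 99.6%, and O-GlcNAc points of 8 genes between 68.5% and 98.6%. The only FOXK1 point is PKM at 48.6%.

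The hexokinases were the 2 genes without a peak of any list over the given start. HK1, the broadly expressed hexokinase, had no peak of any list within 5 kb of its start at chromosome 10, position 71029740. The nearest were low-scoring peaks downstream, an O-GlcNAc peak 9699 bp away (score 53.29) and an ASXL1 peak 9943 bp away (score 67.28), and they did not overlap. Farther into the gene an ASXL1 peak of score 196.55 lay 48485 to 49145 bp downstream, above 82.1% of its list, and overlapped an O-GlcNAc peak at 49066 to 49979 bp (score 91.99). HK1 is known for alternative promoters, and RefSeq lists 7 starts in GRCh38, of which the fifth and the sixth lie 48.2 and 49.1 kb after the most upstream one. Coordinates were not converted between builds, so whether those peaks cover these starts was not tested. The GC share of the 250 bases before the start was 46.8% at the most upstream start, and 63.6% and 74.0% at the fifth and the sixth.

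HK2, the inducible hexokinase of muscle and of many tumours, had 4 ASXL1 and 2 O-GlcNAc peaks within 5 kb, but none over the given start at chromosome 2, position 75059782. All lay 1001 to 3491 bp downstream. Of these 5 formed a pair of clusters, the nearer with ASXL1 scores of 91.72 and 495.91 and an O-GlcNAc score of 134.9. The farther one held an ASXL1 peak of 318.49 at 2227 to 2874 bp and an O-GlcNAc peak of 159.5 at 2229 to 2771 bp, whose centres were 50 bp apart. The remaining ASXL1 peak, of 76.27 at 3364 to 3491 bp, had no O-GlcNAc partner. RefSeq lists 2 starts for HK2 in GRCh38, 1043 bp apart. The nearest FOXK1 peak was 235 kb away, the longest such distance among the 10 genes.

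PFKP, the platelet-type phosphofructokinase, was the only gene with ASXL1 and without O-GlcNAc in the 10 kb around its start. An ASXL1 peak covered the start on chromosome 10 from 210 bp upstream to 269 bp downstream (score 924.46, above 95.4% of the list). The nearest O-GlcNAc peak began 10410 bp downstream, in a group of 3 with scores of 104.87, 90.5 and 67.43. A FOXK1 peak of score 52.4, above 7.6% of its list, ended 5522 bp upstream of the start and overlapped an ASXL1 peak of score 64.96.

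At ALDOA the O-GlcNAc peak ranked higher in its list than the ASXL1 peak did in its own. The start at chromosome 16, position 30064411, was covered by an O-GlcNAc peak of score 459.57, above 95.8% of its list, and by an ASXL1 peak of score 119.04, above 72.9% of its list. The peaks spanned 367 bp upstream to 269 bp downstream and 328 bp upstream to 257 bp downstream, and their centres were 13 bp apart. A far higher ASXL1 peak of score 937.76 lay 10526 to 13120 bp downstream. The O-GlcNAc peak inside it scored 71.9, above 57.9% of its list, while the ASXL1 peak was above 95.5%. ALDOA is also known for alternative promoters. The start given here may be a distal one, with others close to the high ASXL1 peak downstream, and then the scores at the start and the coverage after it would not describe the promoter in use. RefSeq lists 3 ALDOA starts in GRCh38 within 1481 bp of each other, and where they lie relative to the given hg19 start was not tested. Which start these cells use was not measured.

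GAPDH, the enzyme of the oxidation step and a common reference gene, carried the widest ASXL1 peaks of the 10 genes. A peak of 3579 bp and score 2532.19 ran from 2463 bp upstream to 1115 bp downstream of the start on chromosome 12. A second one, of 4451 bp and score 3100, ran from 1124 to 5574 bp downstream. Together they left 8 bp between them and covered 99.8% of the 5 kb after the start. RefSeq gives GAPDH a length of 3855 bp in GRCh38. O-GlcNAc had 3 separate peaks in this stretch, with scores of 92.79 upstream, 548.34 over the start and 126.1 at 3432 to 4487 bp downstream. Each overlapped an ASXL1 peak.

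PGK1, the X-linked kinase that makes the first ATP of the pathway, had the lowest O-GlcNAc score of the genes with such a peak when each gene is taken by its highest peak. Its 4 O-GlcNAc peaks scored 55.27, 51.68, 81.57 and 62.56. The peak of 51.68, which covered the start, was near the lowest score listed (50) and above only 6.0% of the list. ASXL1 peaks of 379.11 over the start and 240.71 just after it were above 88.8% and 84.5% of their list. Of the 4 O-GlcNAc peaks 2 overlapped ASXL1, with centres 26 bp and 18 bp apart. The other two, 4268 bp upstream and 1376 bp downstream, overlapped no ASXL1 peak.

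ENO1, the enolase, had the highest O-GlcNAc peak of the set. It scored 1058.96, above 98.6% of its list, and spanned the start on chromosome 1 from 1044 bp upstream to 915 bp downstream in 1 piece of 1960 bp. ASXL1 peaks of 3072.38, above 99.6% of its list, and 211.09 overlapped it by 1046 bp and 677 bp. Of the 6 ASXL1 peaks within 5 kb, the most at any of these genes, the 4 farther downstream had no O-GlcNAc partner, with scores of 87.37 to 206.23.

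PKM, the pyruvate kinase of the last step, was where the 3 lists met. Its start lies at chromosome 15, position 72523727, on the minus strand. The ASXL1 peak there spanned 507 bp upstream to 1278 bp downstream (72522449 to 72524234) and scored 2847.44, above 99.6% of its list. The O-GlcNAc peak spanned 746 bp upstream to 1634 bp downstream (72522093 to 72524473) and scored 526.93, above 96.4% of its list. The FOXK1 peak spanned 766 bp upstream to 537 bp downstream (72523190 to 72524493) and scored 74.91, above 48.6% of its list. It shared 1045 bp with the ASXL1 peak and 1284 bp with the O-GlcNAc peak. The centres of the ASXL1 and O-GlcNAc peaks were 58 bp apart, while the FOXK1 centre lay 500 bp and 558 bp from them, to the upstream side. A second, weaker FOXK1 peak of score 56.65 lay 6390 to 6075 bp upstream, inside an ASXL1 peak of 262.24. Downstream of the start, 2 more O-GlcNAc peaks, of 158.42 and 134.52, each lay with an ASXL1 peak, of 470.7 and 293.75.

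LDHA, which makes lactate, showed the same 2 sites in both lists. Over the start on chromosome 11 an ASXL1 peak scored 2378.75, above 99.3% of its list, and an O-GlcNAc peak scored 784.88, above 97.8%, with centres 52 bp apart. Farther downstream an ASXL1 peak of 901.76 at 1347 to 2134 bp lay with an O-GlcNAc peak of 209.84 at 1255 to 2185 bp, with centres 20 bp apart. RefSeq lists 2 LDHA starts in GRCh38, 1788 bp apart. An O-GlcNAc peak of 95.33 between these sites had no ASXL1 partner. FOXK1 was not listed within 60 kb, and its nearest peak was 71.6 kb upstream.

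PDK1, the kinase that inhibits pyruvate dehydrogenase, had 1 high ASXL1 peak of 1394.82 over its start on chromosome 2, above 97.6% of the list. It overlapped O-GlcNAc peaks of 251.4 and 57.12. A separate ASXL1 peak of 63.55, at 1716 to 1893 bp downstream, had no partner. The nearest FOXK1 peak was 93.7 kb upstream and scored 50.08, close to the lowest score listed.

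The nearest edge of a peak lay within 1 kb of the 5 kb limit at 6 of the 10 genes. Just inside it lay ASXL1 peaks at ALDOA (4957 bp downstream, score 66.35), GAPDH (4818 bp upstream, 65.13, and 4593 bp upstream, 60.33), ENO1 (4732 bp downstream, 206.23) and PFKP (4645 bp downstream, 77.49), and O-GlcNAc peaks at PGK1 (4268 bp upstream, 55.27) and PKM (4297 bp downstream, 134.52). Just outside lay ASXL1 peaks at PFKP (5489 bp downstream, 87.64, and 5599 bp upstream, 64.96), ENO1 (5352 bp, 69.69) and PKM (5627 bp upstream, 69.02, and 5897 bp upstream, 262.24), an O-GlcNAc peak at PGK1 (5590 bp, 92.95) and the FOXK1 peak upstream of PFKP (5522 bp).

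Peaks of ASXL1 and O-GlcNAc at these genes mostly coincided. They overlapped at 8 of the 10 genes, which are all genes that had an O-GlcNAc peak, against 5.92% of genome windows (9.28% held a peak of both). Of the 28 ASXL1 peaks 17 (60.7%) overlapped an O-GlcNAc peak at the same gene, and of the 19 O-GlcNAc peaks 16 (84.2%) overlapped an ASXL1 peak. Over the whole lists the same shares were 22.4% for ASXL1 and 27.1% for O-GlcNAc. Peaks at these genes were wider than most, and the part of width in these shares was not tested. Whether peaks at other gene starts overlap as often was not tested either. Both lists come from the same chromatin preparation and were called against the same input, which their overlap shares.

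FOXK1 was then set against the other lists. In the whole genome, 31.7% of windows with an ASXL1 and an O-GlcNAc peak also held a FOXK1 peak. Among the 8 starts with both, 1 did. Of the ASXL1 peaks in the highest-scoring 10% of the list, 30.7% overlapped a FOXK1 peak across the genome. These genes had 10 such peaks, at 7 genes, and 1 of them, at PKM, overlapped FOXK1. Of the O-GlcNAc peaks in the highest 10%, 38.9% overlapped FOXK1, and of the 7 at these genes 1 did, again at PKM. With so few starts, and peaks at the same gene not independent, these counts were not tested. The median distance from the 10 starts to the nearest FOXK1 peak was 41.5 kb, against 86.1 kb from the centres of genome windows. Within 50 kb, 6 of the 10 genes had a FOXK1 peak, against 37.2% of windows of that reach, and within 25 kb 2 did, against 23.3%. The highest of these lay 42793 bp downstream of ALDOA (score 336.24, above 95.4% of the list) and 40142 bp upstream of GAPDH (187.05, above 86.8%). At both places FOXK1 overlapped ASXL1 and O-GlcNAc peaks, outside the RefSeq length of either gene (6142 bp and 3855 bp). RefSeq places PPP4C next after ALDOA and NCAPD2 next before GAPDH, and which gene these sites lie in or next to was not tested. The absence of a peak means only that none was listed, where the lowest score listed is 50. A weaker signal, or a site removed by a filter, is not detectable from a peak list.

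**Figure D3:**
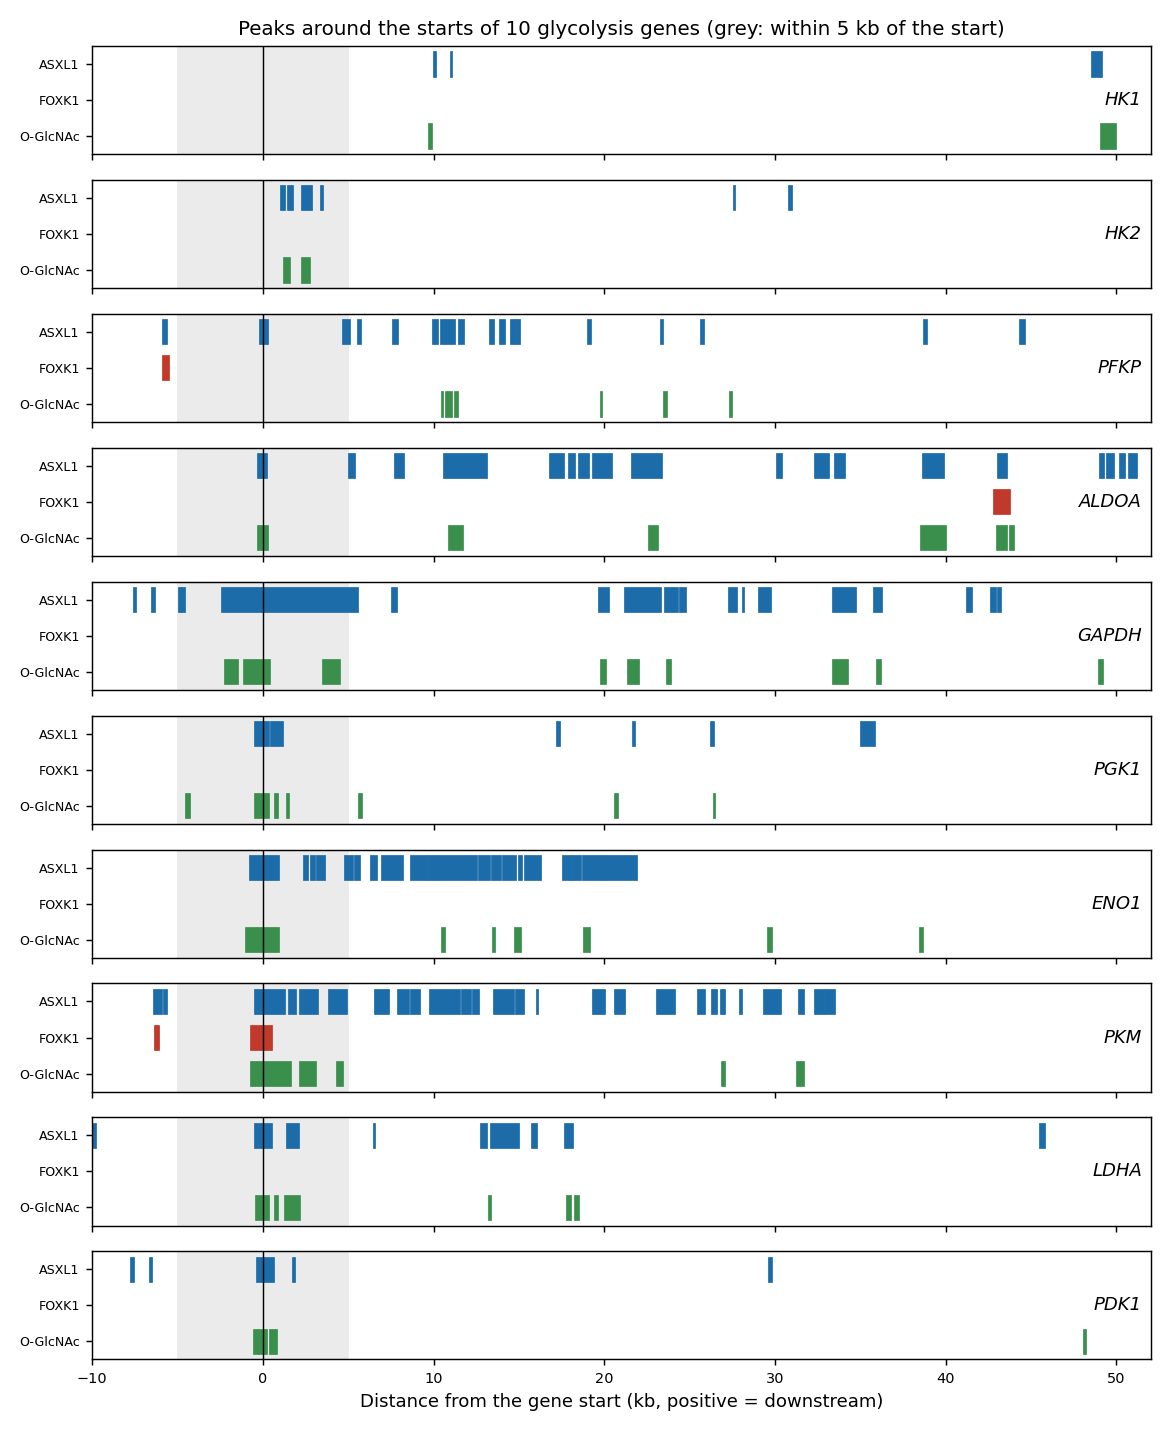
Peaks of ASXL1 (blue), FOXK1 (red) and O-GlcNAc (green) around the 10 starts, 1 panel per gene, drawn to scale against the distance from the start in kb in the direction of transcription, with the 5 kb limit in grey. Blue runs fill most of the first 10 kb after the ENO1, PKM and GAPDH starts (59.3% to 65.1%), green covers less of the same stretches, and red is present within the grey area at PKM alone.

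Beyond the start, ASXL1 peaks filled long stretches downstream of some starts and not of others. In the 25 kb after the start ASXL1 peaks covered 64.9% of bases at ENO1 and 54.3% at PKM, against 1.31% of the genome. Of 121372 adjoining windows of 25 kb, 0.0107% were covered as much as at ENO1 and 0.0288% as much as at PKM. GAPDH (39.7%), ALDOA (35.3%), PFKP (18.2%) and LDHA (17.7%) followed, and PGK1 (6.01%), HK2 (5.73%), PDK1 (3.26%) and HK1 (1.27%) were lowest. As much coverage as at GAPDH, ALDOA, PFKP and LDHA was found in 0.143%, 0.210%, 0.925% and 0.975% of windows, and as much as at PGK1, HK2, PDK1 and HK1 in 5.61%, 5.99%, 11.3% and 21.1%. The windows come from the whole genome, and how much is covered after other gene starts was not tested. The stretch is longer than the RefSeq length of ENO1, LDHA, ALDOA and GAPDH, and so holds sequence past these genes. At ALDOA 7529 of the 8813 covered bases lay 10 to 25 kb after the given start. At HK1 the stretch ends before the ASXL1 peak that begins 48485 bp downstream. RefSeq lists HK1 starts 48.2 and 49.1 kb after the most upstream one, so its low coverage may not describe the promoter in use. The order of the genes depends on the stretch taken. Over 20 kb ALDOA (32.6%) stood above GAPDH (31.4%), LDHA (22.2%) above PFKP (21.7%) and HK2 (7.16%) above PGK1 (6.78%). Over 10 kb PKM (65.1%), ENO1 (59.9%) and GAPDH (59.3%) stood close together, and LDHA (14.4%), HK2 (14.3%), PFKP (13.3%) and ALDOA (12.8%) did as well. At ENO1 the run of ASXL1 peaks ended 21939 bp after the start, where RefSeq gives the gene 17687 bp in GRCh38, and the next peak began at 55662 bp. Inside it lay a further high peak, of 2572.26 at 10006 to 12561 bp. At PKM, of 32563 bp, the last ASXL1 peak within 60 kb ended at 33505 bp. At LDHA, of 13863 bp, an ASXL1 peak of 1182 lay at 13322 to 14999 bp, apart from those near the start. PGK1, of 25048 bp, was covered at its start and hardly further on, with 0% of the stretch from 5 to 10 kb.

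O-GlcNAc covered less of these stretches. Its peaks took up 12.2% of the 25 kb at PKM, 11.1% at GAPDH and 9.44% at LDHA, against 0.825% of the genome, and 0.832% to 8.56% at the other 7 genes. At each of the 10 genes ASXL1 covered more of this stretch than O-GlcNAc. The ASXL1 list is longer and its peaks are wider over the whole genome as well, and the part of this in the difference was not tested. FOXK1 covered 2.15% at PKM and none of the stretch at the other 9 genes, against 0.385% of the genome. Coverage was not set against transcription, since no expression values were analysed here.

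**Figure D4:**
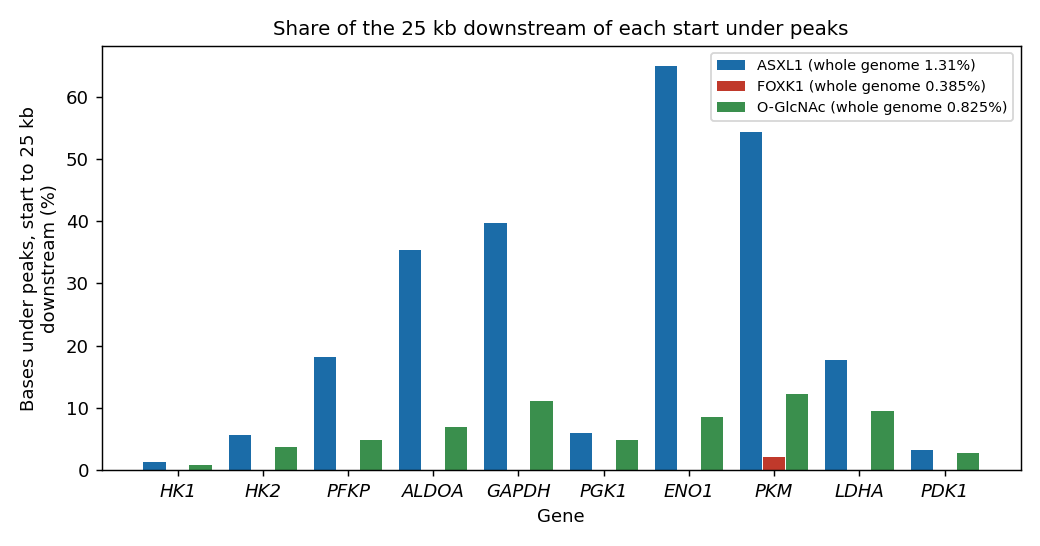
Percent of bases under peaks in the 25 kb downstream of each start (y axis), by gene (x axis) and list (colour), with the share over the whole genome in the legend. ASXL1 stands at 64.9% for ENO1 and 54.3% for PKM, and O-GlcNAc is at most 12.2%, at PKM.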

How the data were processed

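ChIP-seq recovers DNA bound by a chosen target with an antibody and lists places with more tags than an input control as peaks. The deposited lists of 3 libraries were used, each from 1 library and not pooled, and the inputs were not analysed here. Each deposited peak has a position and the score given by the authors' peak caller, whose scale is not given in the sources used here. The submitters' processing notes name Bowtie2 2.0.0, MACS 1.4 and hg19 without settings or filters. Scores were used only within a list.

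Gene starts came from the list that defines the 10 genes, and strands and promoter sequences from RefSeq (GRCh38.p14), with no coordinates converted. Distances are to the nearest peak edge, sharing means at least 1 bp, and positions count from 1. Background windows of 10001 bp adjoined on chromosomes 1 to 22 and X, each taken to end at the last peak of the 3 lists, so assembly gaps are included. Window counts were checked on simulated data. All 10 genes are named, with the peaks nearest their starts. Other glycolysis genes were planned but not analysed here, as no hg19 annotation was used.

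The genes and settings were chosen with earlier results of these data known. Alternatives were distances of 1, 2 and 10 kb, scores from 100 up, the best-scoring 10000 peaks per list, peak centres, a stricter overlap, and windows within 500 kb. With 1 library per antibody no test was made and no p-value computed. Python 3.11.15, NumPy and matplotlib were used.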

Additional observations from a re-analysis of the deposited data

How the results depend on the processing

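No paired analysis was possible because there is 1 library for each antibody, and leaving one out would leave no list of that target. Distances of 20, 25 and 50 kb and the coverage downstream of starts with its other spans were added after seeing the data. The ASXL1 count stayed between 7 and 10 genes and the O-GlcNAc count between 7 and 10 under all settings run. Both overlapped at 8 genes, or 7 at a score of at least 100.

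The FOXK1 result rests on 1 peak of middling score. At a score of at least 100, and with the 10000 highest-scoring peaks, 0 genes had a FOXK1 peak and 0 had all 3 lists, since both settings remove that peak. At a score of at least 100, FOXK1 overlapped ASXL1 at 0 and O-GlcNAc at 0 genes. With peak centres within 500 bp in place of overlap, FOXK1 and O-GlcNAc met at 0 genes. Longer distances gave 2 genes with FOXK1 at 10 kb (PFKP and PKM, both with ASXL1 overlap, 2 genes), 2 at 20 kb, 2 at 25 kb and 6 at 50 kb, against 11.4%, 19.8%, 23.3% and 37.2% of windows. All 3 lists then stood near 2 genes at 20 kb, 2 at 25 kb and 6 at 50 kb.

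The share of windows with a peak moved with the window set and the list length, in the order ASXL1, FOXK1 and O-GlcNAc. It was 36.7%, 10.6% and 33.7% within 500 kb of the starts, 7.77%, 2.34% and 5.17% at a score of at least 100, and 3.21%, 3.12% and 3.24% with the 10000 highest-scoring peaks. At that last setting the counts were 7, 0 and 7 genes. ENO1 and PKM had the highest ASXL1 coverage over 25 kb and over 35 kb, where PKM stood above ENO1 (46.3%). Over 10 kb PKM (65.1%) came before ENO1 (59.9%) and GAPDH (59.3%), and 5 genes moved by over 1.5 times, ALDOA (12.8%) and HK1 (0.570%) down and HK2 (14.3%), PGK1 (11.2%) and PDK1 (8.16%) up. Coverage was first taken over 20 kb and then over 25 kb; ENO1 (71.4%) and PKM (58.7%) came first over 20 kb too, while 3 neighbouring pairs lower in the order changed places. Of the 25 kb, all 1432 covered bases at HK2 and all 816 at PDK1 lay within 5 kb of the start, so a shorter span raises their share. At ALDOA 7529 of the 8813 lay 10 to 25 kb after the start, so a span of 10 kb leaves them out. The cause of the other moves was not tested. Depth is unknown and limits what a missing peak can say.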
